A study of Mus musculus with 16 samples.

Results

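The unfolded protein response is the program by which a cell matches the folding capacity of its endoplasmic reticulum (ER) to the load of proteins entering it. The sensors IRE1 (Ern1), PERK (Eif2ak3) and ATF6 sit in the ER membrane and are held inactive by the chaperone BiP (Hspa5). Active IRE1 splices the mRNA of Xbp1, PERK phosphorylates eIF2 and so favors translation of Atf4, and ATF6 is cut in the Golgi to release a transcription factor. Their targets are chaperones, disulfide isomerases and components of ER-associated degradation (ERAD), and, on the PERK side, Ddit3 (CHOP), Ppp1r15a (GADD34) and genes of amino acid supply. In macrophages the pathway meets inflammatory signaling, since secreted cytokines and surface receptors are folded in the ER. Read counts do not show Xbp1 splicing, eIF2 phosphorylation or ATF6 cleavage, so only the mRNA level of each gene is described.

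The 32 genes of this response were found by their symbols among the 24411 genes of the deposited count table, and all 32 had a row. They were followed in 16 libraries from the brains of 8 bone marrow chimeras. Recipients were C57BL/6J WT mice that received 950 cGy and then donor bone marrow carrying CD45.1. From each brain, 10000 engrafted cells (CD45.1) and 10000 host microglia (CD45.2) were sorted as separate libraries, with a gate on Ly6C/G-negative, CD11b-positive cells that were low for the respective CD45 form. Mice 1 to 4 had received 2.5 mg/kg LPS 12 h before, and mice 5 to 8 were unchallenged controls, which gave 4 groups of 4 libraries. The labels give 3.5 or 9 months after transfer without assigning them to libraries. The study places the LPS challenge, and the unchallenged cells set against it, at 9 months. Host microglia had been irradiated in place and the graft had not, so population and irradiation cannot be told apart.

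Counted reads ranged from 395283 to 1203597 per library (median 820587.5), and a count of 0 allows up to 3 reads, which is 2.39 to 8.41 CPM (reads scaled to a common library size) depending on the library. This limit covers counting error only. Levels below are CPM after TMM scaling over all 16 libraries, and they are compared between groups for 1 gene at a time. The sorted populations bore their markers. The summed level of 9 microglia markers was 22809 to 25845 CPM in unchallenged host cells and 14546 to 16504 CPM in unchallenged engrafted cells, and that of 6 markers of engrafted macrophages was 4013 to 7663 and 60735 to 85088 CPM, respectively. After LPS the microglia sum was 11549 to 12546 CPM in host and 5447 to 6978 CPM in engrafted cells, both below the unchallenged engrafted range. The sum of the 6 engrafted markers was then 3072 to 4694 and 47269 to 94011 CPM. Apoe made up most of that sum, with a mean of 68904 CPM in unchallenged engrafted cells. The engrafted library of mouse 4, after LPS, stood apart. It was the shallowest, its 6 red blood cell markers summed to 6608 CPM, and its 20 immediate early and dissociation genes summed to 36666 CPM, against 19048 CPM in the lowest library of its group. The unchallenged libraries of mouse 8 also held red blood cell RNA (4724 CPM in engrafted and 767 CPM in host cells), so counts are also given without mice 4 and 8. The unchallenged host library of mouse 5 held more transcripts of other brain cells than the rest of its group, with neuron markers at 240 CPM (18.4 to 30.1 CPM in the others), astrocyte markers at 326 CPM (183 to 239 CPM) and oligodendrocyte markers at 236 CPM (155 to 172 CPM). Replicates were separate libraries, since each of the 24 pairs within a group differed by 1.98 to 8.64 times what counting noise gives.

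Of the 32 members, 24 had enough reads to be tested in each of the 4 comparisons of groups, Pdia4 was tested in host cells and in the interaction only, and 7 were never tested. A member is said to rise, fall or differ where its adjusted p from edgeR was below 0.05 over all genes tested. By that measure 19 members changed in at least 1 comparison of groups. Changes were mostly below 2-fold. The 4 comparisons share libraries with each other, so a member with an extreme value in 1 group appears in both comparisons that use it.

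Before any challenge, the graft held 11 of the 24 tested members at a lower level than host microglia did and 1 at a higher level, while 13.7% of the 8042 genes tested were lower and 13.6% were higher. None of the 11 differed by more than 2-fold, whereas 11% of all genes passed both the test and 2-fold. The members had a median log2 fold change of -0.37, against 0.02 for all genes tested, and 22 of the 24 had a negative sign. In bulk libraries, fewer cells that express a gene and less RNA per cell cannot be told apart. Without mice 4 and 8, 7 members were lower and 0 were higher, and without the host library of mouse 5, 12 were lower and 0 higher.

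ERAD is the route that returns misfolded proteins to the cytosol for destruction. Among the members, 5 of its 6 tested genes were lower in unchallenged engrafted cells, beside 13.7% of all genes. A further list of ERAD components did not share this, since 4 of 25 tested were lower and 0 higher (median log2 fold change -0.09). The lower level is thus described for the members and not for ERAD as a whole. The member Edem1 is a lectin that hands misfolded glycoproteins to this route. It had 87.6, 111, 91.8 and 121 CPM in the engrafted libraries and 193, 174, 214 and 165 CPM in the host libraries. All engrafted libraries were below all host libraries, and the log2 fold change was -0.82 ± 0.15 (SE, n = 4 per group, adjusted p = 0.000107, edgeR). Derl1 and Derl2 encode derlins, membrane proteins of the export channel. Derl1 spanned 102 to 137 CPM in engrafted and 155 to 199 CPM in host cells (log2 fold change -0.61 ± 0.14, adjusted p = 0.00154, edgeR). Derl2 spanned 91.8 to 116 and 127 to 155 CPM (log2 fold change -0.40 ± 0.13, adjusted p = 0.0268, edgeR). Herpud1, a scaffold of the degradation complex, was lower by the same test (log2 fold change -0.41 ± 0.13, adjusted p = 0.0178, edgeR), and so was the ubiquitin ligase Syvn1 (HRD1), although the libraries of Syvn1 overlapped (log2 fold change -0.50 ± 0.18, adjusted p = 0.0363, edgeR). Sel1l, the partner of Syvn1, missed the threshold with a log2 fold change of -0.40 and an adjusted p of 0.0528 (edgeR), and passed with the mouse as a replicate block (log2 fold change -0.43 ± 0.14, adjusted p = 0.022, edgeR).

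Chaperones and folding enzymes were lower in part. Calr (calreticulin), the lectin chaperone that retains immature glycoproteins, had 616, 695, 549 and 632 CPM in unchallenged engrafted cells and 859, 964, 1098 and 1242 CPM in unchallenged host microglia. The groups did not overlap, and the log2 fold change was -0.68 ± 0.12 (SE, n = 4 per group, adjusted p = 0.000105, edgeR). Of the disulfide isomerases, Pdia6 (log2 fold change -0.47 ± 0.13, adjusted p = 0.00941, edgeR) and Pdia3 (log2 fold change -0.39 ± 0.14, adjusted p = 0.0446, edgeR) were both lower. BiP itself was 734, 863, 675 and 972 CPM in engrafted and 824, 1106, 964 and 1205 CPM in host cells. These libraries overlapped and Hspa5 did not pass (log2 fold change -0.28 ± 0.13, adjusted p = 0.12, edgeR), and neither did Hsp90b1 (GRP94), Dnajb9, Dnajc3 or Canx. Sdf2l1, a small soluble ER protein, was lower with overlapping libraries (23.6 to 42.6 against 36.8 to 79.6 CPM, log2 fold change -0.88 ± 0.24, adjusted p = 0.00713, edgeR).

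Among sensors and transcription factors, Xbp1 was the member that differed in unchallenged cells. It had 247, 256, 261 and 245 CPM in engrafted and 310.4, 304, 344 and 378 CPM in host cells, without overlap (log2 fold change -0.35 ± 0.13, adjusted p = 0.0409, edgeR). Atf6 spanned 50.6 to 88.5 CPM in engrafted and 45.4 to 69.9 CPM in host cells and did not pass (log2 fold change 0.49 ± 0.19, adjusted p = 0.0575, edgeR). Ppp1r15a, the phosphatase subunit that reverses eIF2 phosphorylation, had 469, 433, 447 and 401 CPM in engrafted and 596, 719.7, 568 and 875 CPM in host cells. No library of the former reached a library of the latter (log2 fold change -0.60 ± 0.13, adjusted p = 0.00115, edgeR). The member that was higher in engrafted cells was Sec61b, a small subunit of the translocon through which proteins enter the ER (log2 fold change 0.54 ± 0.20, adjusted p = 0.0493, edgeR). Its libraries overlapped, and the call was lost without mice 4 and 8 (log2 fold change 0.35, adjusted p = 0.315). Leaving out 1 library ended the Sec61b call for 6 of 8 libraries (adjusted p up to 0.233, edgeR). Leaving out single libraries also ended the calls of Xbp1 (adjusted p up to 0.0868), Pdia3, Derl2, Syvn1 and Herpud1. Without the engrafted library of mouse 7, 7 members were lower. The calls of Calr, Pdia6, Edem1, Derl1, Ppp1r15a and Sdf2l1 were kept without any single library and without mice 4 and 8.

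**Figure D1:**
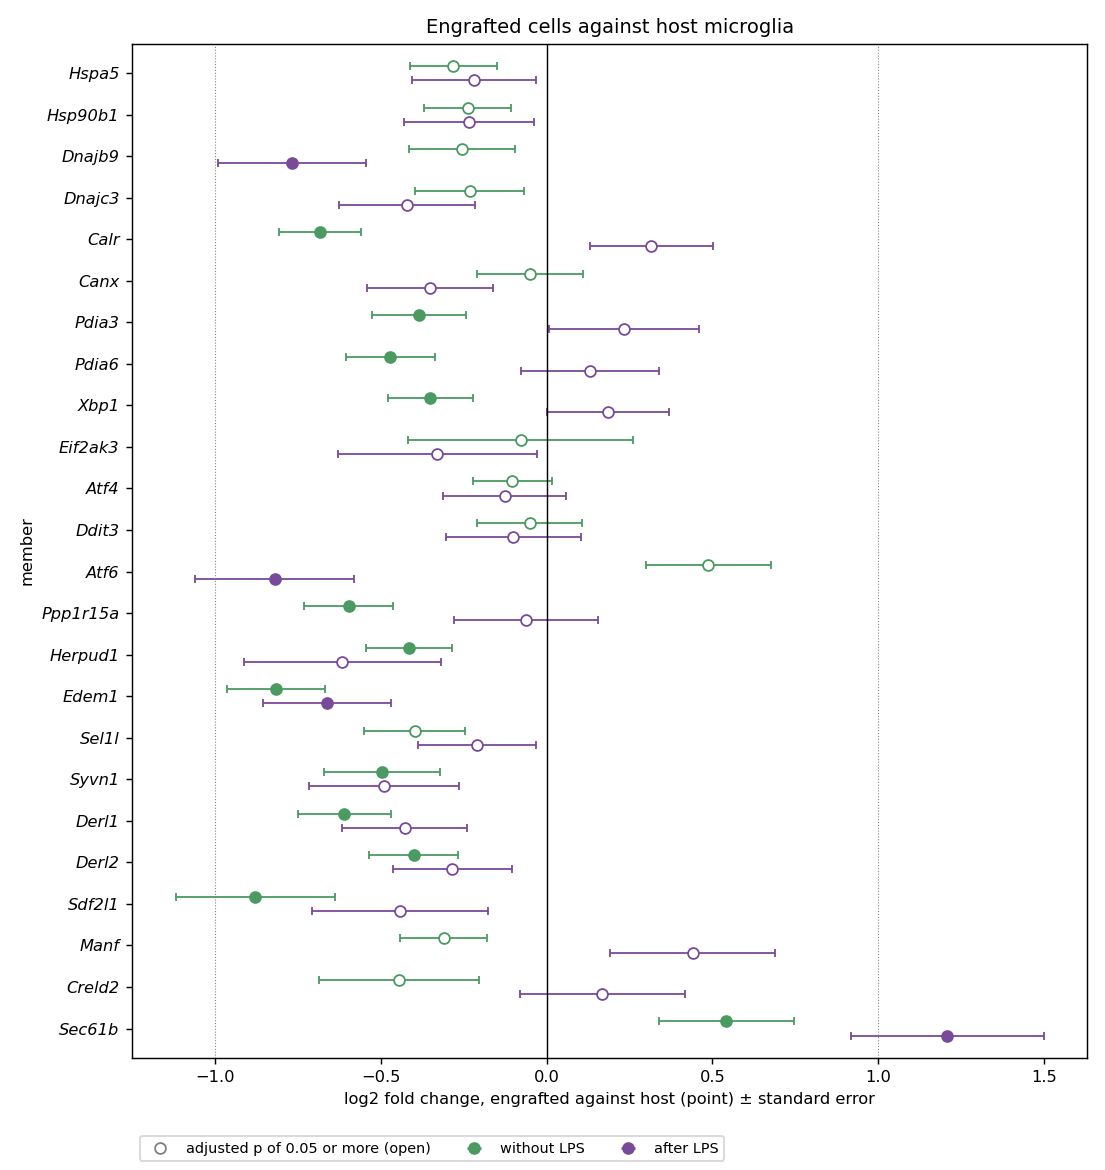
Log2 fold change of engrafted cells against host microglia for each tested member (horizontal axis), without LPS (green) and after LPS (purple), with standard errors; n = 4 libraries per group, filled points passed at an adjusted p below 0.05, and dotted lines mark 2-fold. Without LPS the filled points lie left of 0 except that of Sec61b, and their sizes stay between -0.88 and 0.54.

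Some of the chaperone and ERAD genes carry the ER stress response element (ERSE) close to their start. The element was searched as CCAAT and CCACG separated by 9 bases, and ERSE-II as ATTGG and CCACG separated by 1 base, on both strands. The windows were those of RefSeq (build GRCm38.p6), from 250 bases before to 50 bases after each start, and 28 of the 32 members had at least 1 (29 windows in all). ERSE stood in 39 of 32851 windows of all genes (0.119%) and in those of 9 members, namely Hspa5, Hsp90b1, Dnajc3, Pdia6, Calr, Canx, Syvn1, Creld2 and Derl3. ERSE-II stood in 12 windows (0.0365%), and Herpud1 was the member among them. The unfolded protein response element TGACGTG (2.01% of windows) was found in Hspa5, and the amino acid response element (TGATG and AA separated by 1 base, 3.97% of windows) in Trib3, Herpud1, Chac1 and Asns. A match describes the letters of the window and does not show that a factor binds there.

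Atf6 and Manf had no window, and Edem1, Sec61b, Ppp1r15a and Xbp1 held none of the elements searched in theirs. The stretches below are the ERSE and ERSE-II elements of the members that hold 1 and changed in at least 1 comparison of groups. Each runs 5′ to 3′ in the direction of the gene and ends before the transcription start, with 30 bases on each side where these lie upstream. Capitals mark the 2 pieces of the element, which read CGTGG and ATTGG where it lies on the opposite strand, as in Calr and Creld2. The element of Hspa5 lies 65 bases upstream of the start (chr2:34771995-34772073, plus strand), that of Calr 162 (chr8:84847045-84847123, minus strand), that of Pdia6 98 (chr12:17266461-17266539, plus strand), that of Creld2 126 (chr15:88819490-88819568, plus strand), that of Syvn1 44 (chr19:6046502-6046575, plus strand) and that of Herpud1 52 (chr8:94386347-94386417, plus strand).
Hspa5: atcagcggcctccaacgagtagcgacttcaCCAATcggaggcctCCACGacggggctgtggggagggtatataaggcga
Calr: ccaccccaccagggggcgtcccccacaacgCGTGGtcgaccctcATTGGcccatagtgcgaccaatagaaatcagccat
Pdia6: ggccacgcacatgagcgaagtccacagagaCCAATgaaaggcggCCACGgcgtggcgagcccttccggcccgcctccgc
Creld2: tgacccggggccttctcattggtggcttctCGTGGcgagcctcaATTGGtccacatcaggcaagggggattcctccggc
Syvn1: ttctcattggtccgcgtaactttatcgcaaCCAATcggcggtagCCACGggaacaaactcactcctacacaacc
Herpud1: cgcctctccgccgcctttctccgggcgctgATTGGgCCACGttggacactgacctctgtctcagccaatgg

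The members with an element did not move as 1 block. In unchallenged cells, Calr, Pdia6, Syvn1 and Herpud1 were lower in the graft, which is 4 of the 9 tested members with ERSE or ERSE-II. Of the 12 tested members whose window held neither, 6 were lower as well, beside 13.7% of all genes tested. After LPS, 0 of these 9 rose and 3 fell in host microglia (Hspa5, Calr and Creld2), while 1 rose and 0 fell in engrafted cells (Pdia6). Of the tested members whose window held neither, 2 of 13 rose and 3 fell in host microglia, and 3 of 12 rose and 2 fell in engrafted cells. Among all genes 19.2% rose and 20.5% fell in host microglia, and 19.4% and 19.3% in engrafted cells. These small counts after LPS thus single out neither set.

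**Figure D2:**
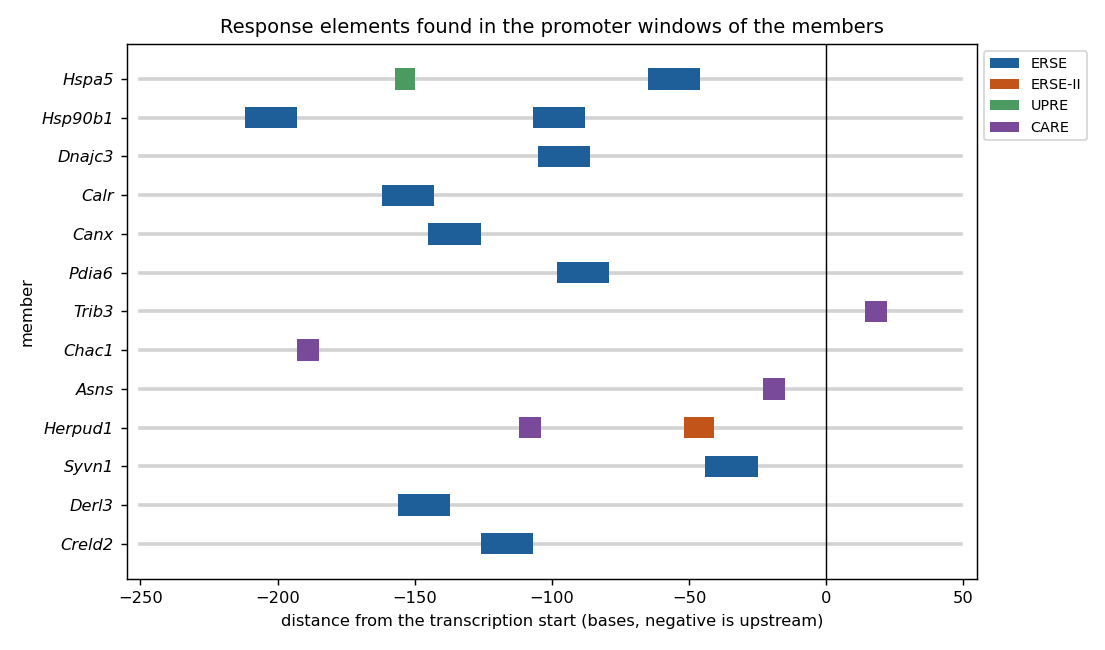
Position of the 4 response elements in the promoter windows of the 13 members that hold any, as distance in bases from the transcription start (horizontal axis, from 250 before to 50 after); each grey line is 1 window and each colored box 1 element on either strand. The ERSE boxes (blue) lie between 212 and 44 bases upstream, and Hsp90b1 has a pair of them.

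LPS moved members in both directions. In host microglia 3 of 25 tested members rose and 6 fell, while 19.2% of the 8238 genes tested rose and 20.5% fell. In engrafted cells 6 of 24 rose and 2 fell, while 19.4% of the 7609 genes tested rose and 19.3% fell. Beyond 2-fold, 2 members changed in each population (Atf6 and Ppp1r15a in the host, Manf and Sec61b in the graft), whereas 18% of the genes tested in host microglia and 21.5% of those in engrafted cells did. The members' median log2 fold change was -0.11 in host microglia and 0.06 in engrafted cells, against 0.01 and -0.01 for all genes tested. Without mice 4 and 8, 3 rose and 5 fell in host microglia, and 6 rose and 4 fell in engrafted cells. In both populations, Atf4, Atf6 and Sec61b rose and Ddit3 fell, and these were the 4 members that changed in both.

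Atf6 had the widest change of all members. This sensor (chr1:172634588-172797902 in mm9, minus strand) stood at 45.4, 69.9, 57.4 and 47.0 CPM in unchallenged host microglia and at 251, 196, 262 and 168 CPM after LPS. Every challenged host library was above every unchallenged one, and the change was 3.93-fold (log2 fold change 1.97 ± 0.19, SE, n = 4 per group, adjusted p = 2.45e-08, edgeR). In engrafted cells it was 78.6, 50.6, 88.5 and 81.0 CPM without LPS and 142, 140.3, 141 and 56.1 CPM after it. The challenged engrafted libraries of mice 1, 2 and 3 were above all unchallenged ones, and that of mouse 4 lay within their range. The rise passed with all libraries (log2 fold change 0.68 ± 0.24, adjusted p = 0.0273, edgeR) and was 0.87 ± 0.17 on the log2 scale without the engrafted library of mouse 4 (adjusted p = 0.000302, edgeR). It did not pass without the engrafted library of mouse 1, 2, 3, 5 or 6 (adjusted p up to 0.104). The host response kept a log2 fold change between 1.89 and 2.11 without any single library.

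The PERK branch held members that rose and members that fell. Eif2ak3 itself was low and scattered, with 11.7, 30.1, 25.5 and 18.4 CPM in unchallenged host microglia and 27.5, 15.95, 21.7 and 32.0 CPM after LPS. In engrafted cells it had 24.2, 30.3, 8.19 and 16.2 CPM without and 21.3, 17.1, 20.8 and 14.0 CPM with LPS, and it passed no test. Atf4 had 818, 889.6, 803 and 973 CPM in unchallenged and 1372, 1507, 1169.9 and 1182 CPM in challenged host microglia. In engrafted cells it had 685, 872, 703 and 862 CPM without and 1119, 1127, 1056 and 1396 CPM with LPS. All challenged libraries were above all unchallenged ones in each population (log2 fold change 0.57 ± 0.14 in the host, adjusted p = 0.00248, and 0.56 ± 0.18 in the graft, adjusted p = 0.0189, edgeR). In the graft the call was lost without the unchallenged engrafted library of mouse 5 or 7 (adjusted p up to 0.074).

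Ddit3, which encodes CHOP, the transcription factor induced through ATF4, fell in both. It had 202, 192, 137 and 242 CPM in unchallenged and 146, 88.7, 112 and 119.6 CPM in challenged host microglia. Except that 1 unchallenged host library lay within the challenged range, levels were lower after LPS (log2 fold change -0.74 ± 0.19, adjusted p = 0.00305, edgeR). In engrafted cells it had 168, 189, 162 and 198 CPM without and 123, 90.3, 89.8 and 129 CPM with LPS, and the groups did not overlap (log2 fold change -0.78 ± 0.18, adjusted p = 0.0021, edgeR). Ppp1r15a had 391, 275, 298 and 403 CPM in challenged host microglia, all below the unchallenged host libraries given above. It fell 2.04-fold there (log2 fold change -1.03 ± 0.17, adjusted p = 5.16e-05, edgeR). In challenged engrafted cells Ppp1r15a had 308, 346, 237 and 401 CPM, each below the unchallenged engrafted libraries by CPM but without passing (log2 fold change -0.48 ± 0.19, adjusted p = 0.0514, edgeR). Without the engrafted library of mouse 4 it passed (log2 fold change -0.60 ± 0.16, adjusted p = 0.00412, edgeR).

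The summed level of the 20 immediate early and dissociation genes, none of which is a member, was read beside Ddit3 and Ppp1r15a. Its median was lower after LPS in both populations. Without LPS the sum was higher in engrafted than in host cells, whereas Ppp1r15a was lower in engrafted cells and Ddit3 did not pass. The sum was 21864 to 28077 CPM in unchallenged and 18423 to 21885 CPM in challenged host microglia. In engrafted cells it was 29324 to 32775 CPM without LPS and 19048 to 36666 CPM with it, the highest being the library of mouse 4. Its part in the fall of Ddit3 and Ppp1r15a was not tested.

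Of 6 tested chaperones, 2 fell after LPS in host microglia and 0 rose, where 20.5% of all genes fell and 19.2% rose. Hspa5 had 692, 723, 662 and 794 CPM in challenged host microglia, below every unchallenged host library (log2 fold change -0.53 ± 0.15, adjusted p = 0.00625, edgeR). Calr had 748, 736, 555 and 730.3 CPM there, again without overlap (log2 fold change -0.60 ± 0.15, adjusted p = 0.00305, edgeR). Pdia3 (log2 fold change -0.40, adjusted p = 0.0333) and Creld2, a secreted ER stress factor (log2 fold change -0.56, adjusted p = 0.0367), fell too, but leaving out single libraries ended both calls, as it did that of Sec61b in host cells (adjusted p up to 0.186). In engrafted cells Hspa5 had 541, 589, 575 and 720.5 CPM after LPS and missed the threshold (log2 fold change -0.46 ± 0.18, adjusted p = 0.0568, edgeR). It passed without the engrafted library of mouse 4 (log2 fold change -0.55 ± 0.15, adjusted p = 0.00536, edgeR). Dnajb9 (ERdj4), a cochaperone of BiP and a target of spliced XBP1, fell in engrafted cells from 67.5 to 95.4 CPM to 39.0 to 56.1 CPM (log2 fold change -0.73 ± 0.21, adjusted p = 0.0089, edgeR).

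Sec61b, Manf and Xbp1 rose in engrafted cells. Manf encodes a small secreted protein that stabilizes the ER, and had 142, 121, 129 and 129.6 CPM without LPS and 252, 216, 243 and 459.8 CPM with it (log2 fold change 1.11 ± 0.23, 2.15-fold, adjusted p = 0.000632, edgeR). All challenged libraries were above the unchallenged ones, and the highest was that of mouse 4, without which the log2 fold change was 0.82 ± 0.16 (adjusted p = 0.000224, edgeR). Sec61b had 55.4, 116, 68.8 and 113 CPM without and 182, 181, 130.1 and 353 CPM with LPS, again without overlap and again highest in mouse 4 (log2 fold change 1.21 ± 0.29, 2.31-fold, adjusted p = 0.00236, edgeR). Without that library the log2 fold change of Sec61b was 0.89 ± 0.22 (adjusted p = 0.00197, edgeR), so neither gene was beyond 2-fold. Xbp1 reached 562, 451, 446 and 457 CPM, 1.85-fold over the unchallenged engrafted libraries (log2 fold change 0.89 ± 0.17, adjusted p = 0.000357, edgeR).

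In host microglia Manf was 158, 166, 166 and 186 CPM without and 213, 279, 203 and 177 CPM with LPS, and Xbp1 reached 409, 499, 373 and 431 CPM after LPS. Neither passed (log2 fold changes 0.36 and 0.34, adjusted p = 0.0684 and 0.0592, edgeR), and in each case 1 challenged library lay within the unchallenged range. Sec61b in host cells had 57.1, 68.0, 63.8 and 56.2 CPM without and 79.1, 136, 64.0 and 84.9 CPM with LPS (log2 fold change 0.56 ± 0.21, adjusted p = 0.0346, edgeR). For Xbp1 and Manf the difference between the populations' responses was itself not past the threshold (interaction 0.53 and 0.74 on the log2 scale, adjusted p = 0.155 and 0.137, edgeR). Pdia6 rose in engrafted cells (log2 fold change 0.50 ± 0.18, adjusted p = 0.0308, edgeR), a call that leaving out single libraries or mice 4 and 8 ended. None of the 6 tested ERAD members passed after LPS in either population.

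**Figure D3:**
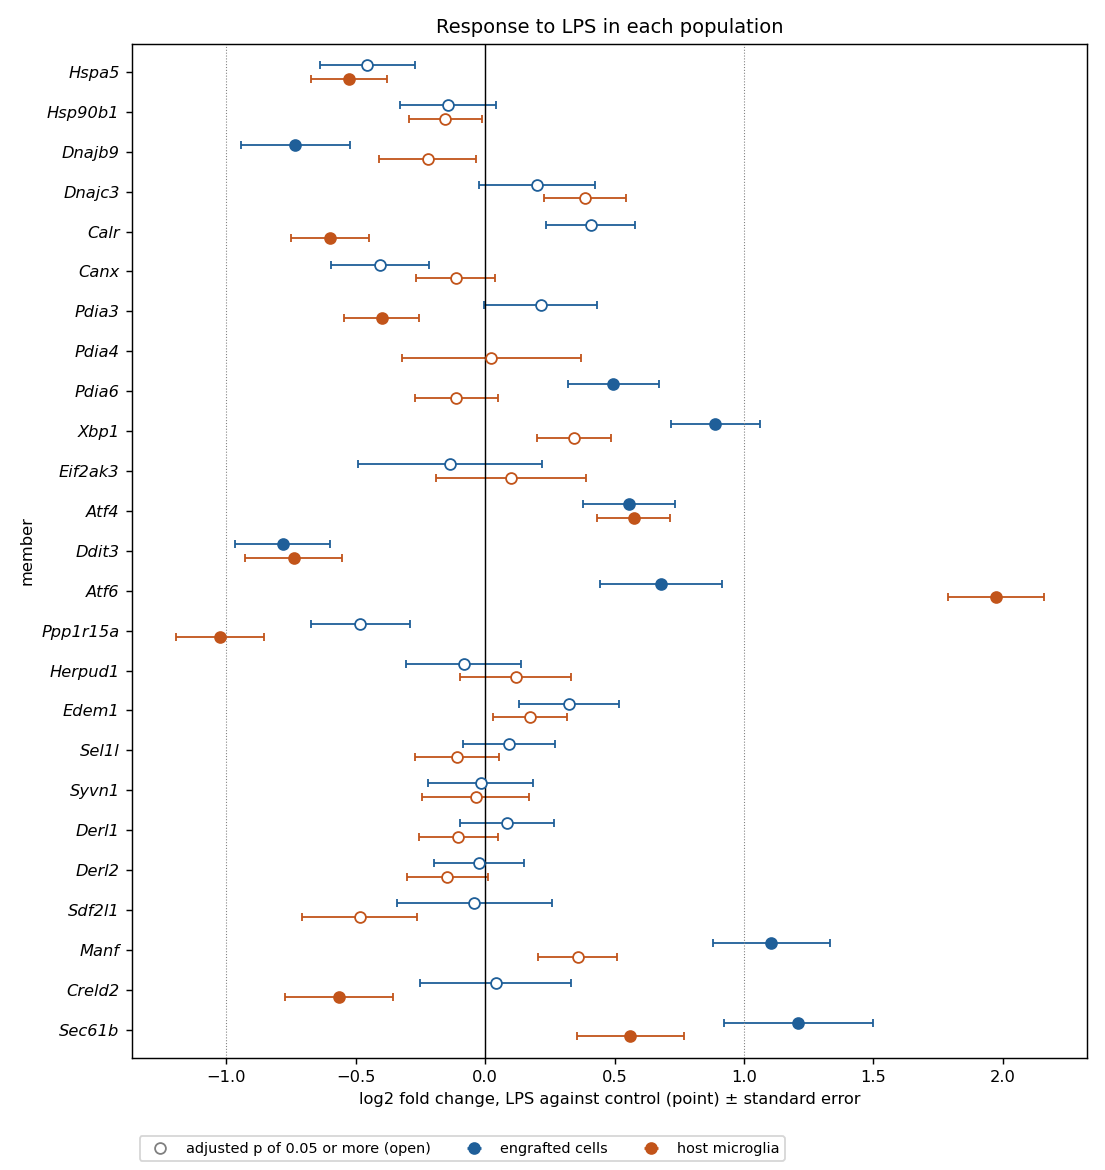
Log2 fold change after LPS for each tested member (horizontal axis) in engrafted cells (blue) and host microglia (orange), with standard errors; n = 4 libraries per group, filled points passed at an adjusted p below 0.05, and dotted lines mark 2-fold. Atf6 in host microglia lies at 1.97, Ppp1r15a at -1.03, and the 6 ERAD members from Herpud1 to Derl2 are open in both populations.

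The response to LPS differed between the populations in 2 members. Calr had 869, 979.6, 736 and 807 CPM in challenged engrafted cells, above every unchallenged engrafted library although that change alone missed the threshold (log2 fold change 0.41 ± 0.17, adjusted p = 0.0667, edgeR). In host microglia it fell, as given above. The interaction of Calr was 1.00 ± 0.22 on the log2 scale (n = 16 libraries, adjusted p = 0.00624, edgeR). Atf6 rose by less in engrafted cells, with an interaction of -1.30 ± 0.31 (adjusted p = 0.0101, edgeR). Both interactions passed without any single library and without mice 4 and 8. Among all 8847 genes tested, 2.97% responded more strongly upward in engrafted cells and 2.9% less so, and 4.95% did so beyond 2-fold, against 1 and 1 of 25 tested members and 1 beyond 2-fold (Atf6).

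**Figure D4:**
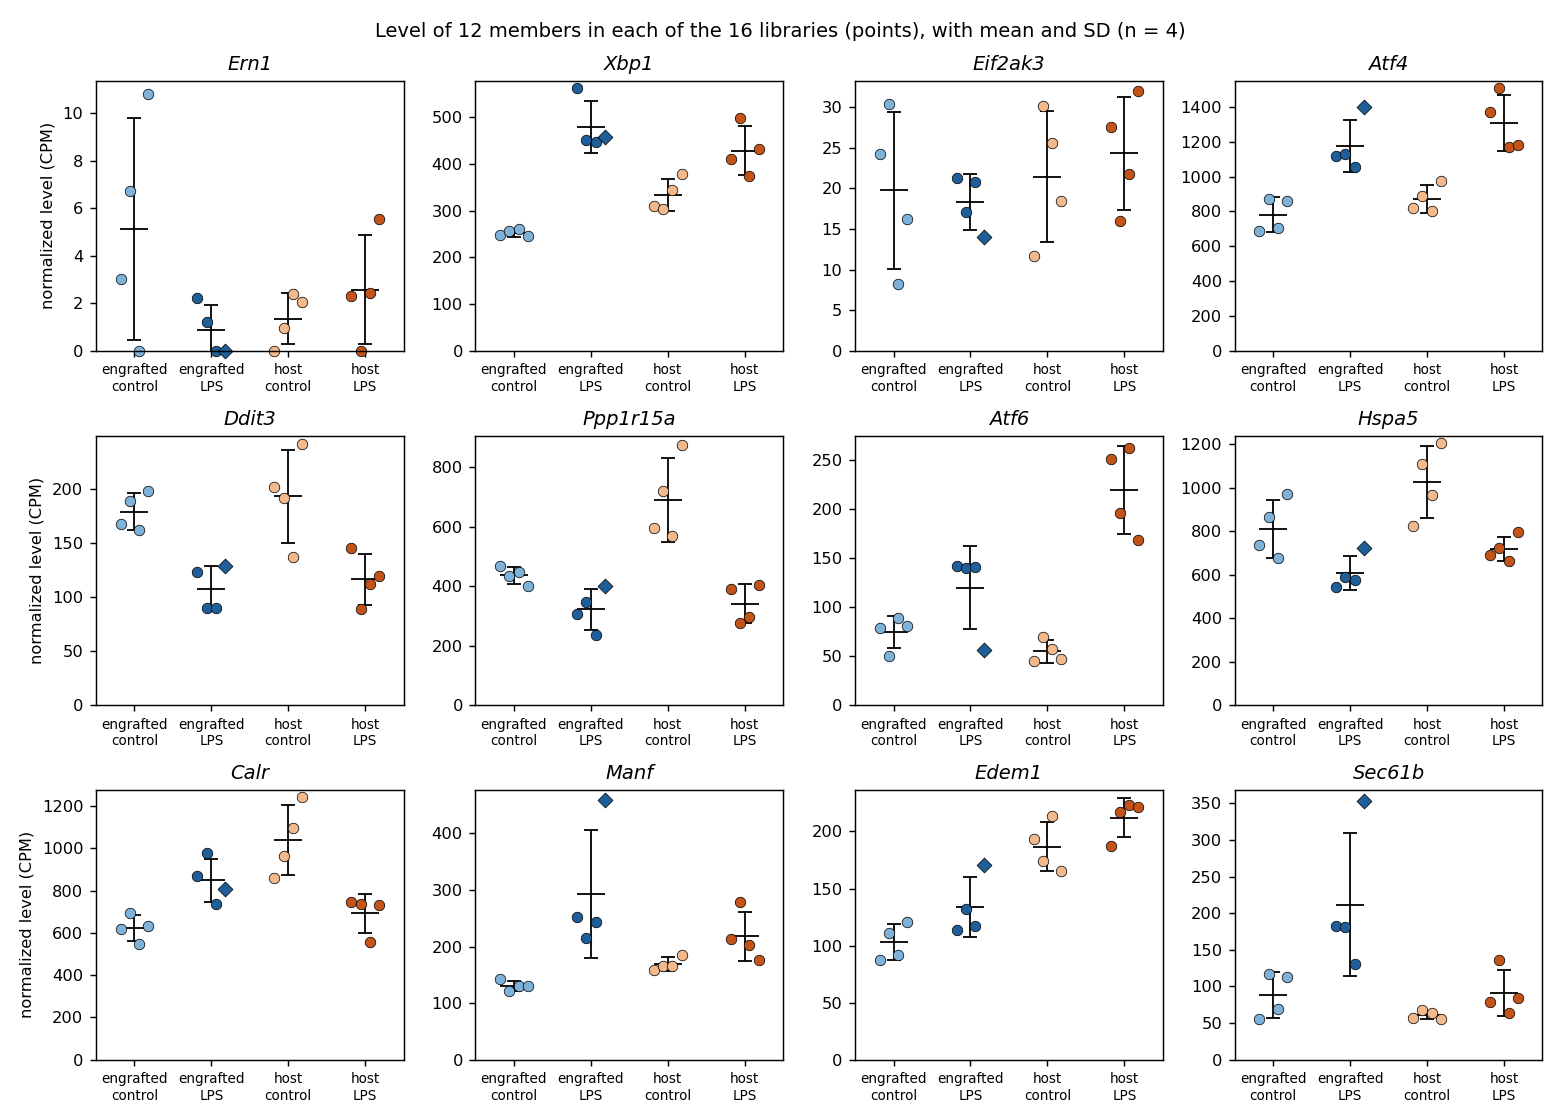
Level in CPM (vertical axis, from 0, with a scale of its own in each panel) of 12 members in every library, by group; points are libraries, bars the mean and SD of 4, and the diamond is the engrafted LPS library of mouse 4. Atf6 in host microglia goes from 45.4 to 69.9 CPM without LPS to 168 to 262 CPM with it. The diamond is the highest point of its group for Atf4, Ddit3, Ppp1r15a, Hspa5, Manf, Edem1 and Sec61b. It is the lowest for Eif2ak3 and Atf6 and shares the lowest value for Ern1.

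After LPS the populations differed in 4 of the 24 tested members. Sec61b was higher in engrafted cells (log2 fold change 1.21 ± 0.29, adjusted p = 0.00699, edgeR), and without the engrafted library of mouse 4 the log2 fold change was 0.87 ± 0.22 (adjusted p = 0.00912, edgeR). Its libraries overlapped, with the lowest engrafted library at 130.1 CPM and the highest host library at 136 CPM. Dnajb9 (log2 fold change -0.77 ± 0.22, adjusted p = 0.0222), Atf6 (-0.82 ± 0.24, adjusted p = 0.0228) and Edem1 (-0.66 ± 0.19, adjusted p = 0.0225) were lower, each without overlap between the groups. Thus 1 of 24 members was higher and 3 were lower, while 9.52% of the 7843 genes tested were higher and 7.62% lower. Beyond 2-fold stood 1 member against 11.1% of all genes. Edem1 was the member that was lower in engrafted cells both without and after LPS, with 114, 132, 117 and 171 CPM in challenged engrafted and 187, 217, 223 and 221 CPM in challenged host cells. The calls of Dnajb9, Atf6 and Edem1 after LPS were each lost without some single library (adjusted p up to 0.0896, 0.075 and 0.094), and 1 member was lower without the engrafted library of mouse 1 or the host library of mouse 3 or 4. All 3 passed without mice 4 and 8. Herpud1 passed after LPS only with the mouse as a replicate block (log2 fold change -0.60 ± 0.18, adjusted p = 0.0239, against 0.184 without the block, edgeR).

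At the edge of detection stayed 7 members, with no more than 12 reads in any library, namely Ern1, Hyou1, Trib3, Chac1, Asns, Sesn2 and Derl3. Ern1, the IRE1 sensor, was at 3.02, 6.74, 0 and 10.8 CPM in unchallenged and 2.24, 1.22, 0 and 0 CPM in challenged engrafted cells. In host microglia it was at 0, 0.971, 2.39 and 2.04 CPM without and at 2.29, 0, 2.41 and 5.56 CPM with LPS. Most of these values lie within the limit that a count of 0 allows, so no difference in Ern1 was detectable at this depth. The others include ATF4 and CHOP targets of which the amino acid enzyme Asns (at most 12.0 CPM) and the kinase-like Trib3 (at most 5.61 CPM) are the best known. The chaperone Hyou1 was at a mean of 4.97 CPM in engrafted and 8.82 CPM in host cells after LPS. It was the 1 of 31 two-sided exact permutation tests on members too low for the fit that reached the smallest p the design allows (0.0286, not adjusted for the 31), and no difference is read from it.

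Further genes of the response were read from lists of ER folding factors, ERAD components, translocon and signal peptide processing, ATF4 and CHOP targets, and eIF2 kinases with other signaling genes (Ero1l is in 2 of them). Among unchallenged cells, 14 of 29 tested ATF4 and CHOP targets were lower in the graft and 3 were higher, beside 13.7% and 13.6% of all genes, and their median log2 fold change was -0.41 against 0.02 for all genes. Phgdh, the first enzyme of serine synthesis, was at 5.04 ± 2.15 CPM in engrafted and 45.2 ± 5.95 CPM in host cells (SD, n = 4, adjusted p = 3.81e-08, edgeR). Its engrafted libraries held 3.02 to 7.20 CPM, near the limit that a count of 0 allows. The mitochondrial folate enzyme Mthfd2 was at 13.2 ± 9.53 and 38.1 ± 10.8 CPM (adjusted p = 0.00186, edgeR). Rtcb, the ligase that joins Xbp1 mRNA again after IRE1 cuts it, was higher in engrafted cells (238 ± 9.93 against 115 ± 10.4 CPM, adjusted p = 2.99e-07, edgeR). Gdf15, a stress-induced cytokine, passed as well (29.0 ± 24.0 against 14.6 ± 2.75 CPM, adjusted p = 0.0232, edgeR), but its engrafted libraries ran from 11.5 to 64.5 CPM. Without the engrafted library of mouse 5 its log2 fold change was 0.32 (adjusted p = 0.574, edgeR), and the call was also lost without the host library of mouse 6 or 7 (adjusted p = 0.0658 and 0.0735). Of 26 translocon genes tested 7 were lower, of 25 ERAD genes 4 were lower, of 24 folding factors 3 were lower and 1 higher, and of 20 signaling genes 1 was lower and 1 higher. Read against 13.7% lower and 13.6% higher among all genes, nothing particular to these 4 lists is drawn from such counts.

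After LPS, 12 of 32 tested ATF4 and CHOP targets rose and 5 fell in host microglia, where 19.2% of all genes rose and 20.5% fell. In engrafted cells 8 of 26 rose and 3 fell, where 19.4% and 19.3% of all genes did. Ddit4 (REDD1), an inhibitor of mTORC1, rose from 43.9 ± 19.6 to 363 ± 58.1 CPM in host microglia and from 23.7 ± 7.55 to 383 ± 207 CPM in engrafted cells (SD, n = 4, adjusted p = 4.67e-10 and 3.18e-08, edgeR). Cebpb, a C/EBP transcription factor, rose from 251 ± 33.0 to 619 ± 56.1 CPM in host microglia and from 297 ± 45.8 to 1345 ± 651 CPM in engrafted cells (adjusted p = 3.20e-07 and 3.00e-06, edgeR), and its interaction did not pass (0.85 ± 0.32 on the log2 scale, adjusted p = 0.123). The cystine transporter Slc7a11 rose in host microglia (2.73 ± 0.951 to 42.4 ± 25.0 CPM, adjusted p = 8.77e-07, edgeR), and went from 1.60 ± 2.58 to 25.6 ± 21.4 CPM in engrafted cells, where it had too few reads to be tested. The unchallenged values of Slc7a11 lay near the limit that a count of 0 allows. Atf3, an immediate stress factor downstream of ATF4, fell in both, from 702 ± 84.3 to 348 ± 94.0 CPM in the host and from 970.3 ± 125 to 232 ± 70.02 CPM in the graft, and by more in the graft (interaction -1.10 ± 0.29, adjusted p = 0.0212, edgeR). That interaction was lost without any 1 of 5 libraries, namely the engrafted ones of mice 1, 2 and 6 and the host ones of mice 4 and 7 (adjusted p up to 0.0647). Cebpg, a partner of C/EBP factors, fell in host microglia (log2 fold change -1.45 ± 0.19, adjusted p = 2.67e-06, edgeR) and in engrafted cells (-0.69 ± 0.25, adjusted p = 0.0375). Nfya, a subunit of the factor that binds CCAAT, fell in engrafted cells (log2 fold change -1.46 ± 0.36, adjusted p = 0.00295, edgeR) and in host microglia (-0.80 ± 0.25, adjusted p = 0.0155). Of 26 translocon genes 8 rose and 2 fell in each population. Folding factors gave 5 up and 3 down of 26 in the host and 4 up and 5 down of 24 in the graft, ERAD components 5 up and 4 down of 25 and 2 up and 2 down of 24, and signaling genes 6 up and 2 down of 21 and 5 up and 2 down of 19. These counts too stand beside the shares of all genes just given, and nothing particular to a list is read from them.

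Nupr1, a small nuclear protein induced by ER stress, responded to LPS in opposite directions. It was at 80.3 ± 18.7 CPM without and 258 ± 39.2 CPM with LPS in engrafted cells, and at 120.5 ± 12.4 and 73.1 ± 21.4 CPM in host microglia (interaction 2.36 ± 0.27, adjusted p = 1.74e-06, edgeR). Rtcb rose in host microglia, from 115 ± 10.4 to 235 ± 24.4 CPM (adjusted p = 7.47e-06, edgeR). In engrafted cells it went from 238 ± 9.93 to 189.99 ± 22.2 CPM and did not pass (log2 fold change -0.36 ± 0.17, adjusted p = 0.0881, edgeR). The interaction of Rtcb was -1.39 ± 0.21 on the log2 scale (adjusted p = 0.000127, edgeR). After LPS, Psat1, which follows Phgdh in serine synthesis, was at 21.0 ± 6.26 CPM in engrafted and 110.04 ± 10.4 CPM in host cells, and the arginine transporter Slc7a1 at 22.7 ± 6.72 and 56.7 ± 5.88 CPM (adjusted p = 9.53e-07 and 0.00103, edgeR). Psat1 was lower in the graft without LPS too (4.60 ± 1.07 against 31.8 ± 4.99 CPM, adjusted p = 1.26e-06, edgeR), where Slc7a1 was at 8.77 ± 3.64 and 18.8 ± 7.46 CPM and was not tested. The engrafted values of Psat1 without LPS (3.02 to 5.40 CPM) lay at the limit that a count of 0 allows. Bcl2l11 (BIM), a death-promoting target of CHOP, was higher in engrafted cells after LPS (49.2 ± 9.16 against 18.8 ± 4.56 CPM, adjusted p = 0.000528, edgeR) and without it (64.3 ± 10.2 against 33.0 ± 3.86 CPM, adjusted p = 0.000198, edgeR). After LPS, 4 of 32 tested ATF4 and CHOP targets were higher in engrafted cells and 9 lower, beside 9.52% and 7.62% of all genes. Of the other lists, 5 of 25 folding factors, 1 of 26 translocon genes, 1 of 20 signaling genes and 0 of 24 ERAD components were lower and none was higher.

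**Figure D5:**
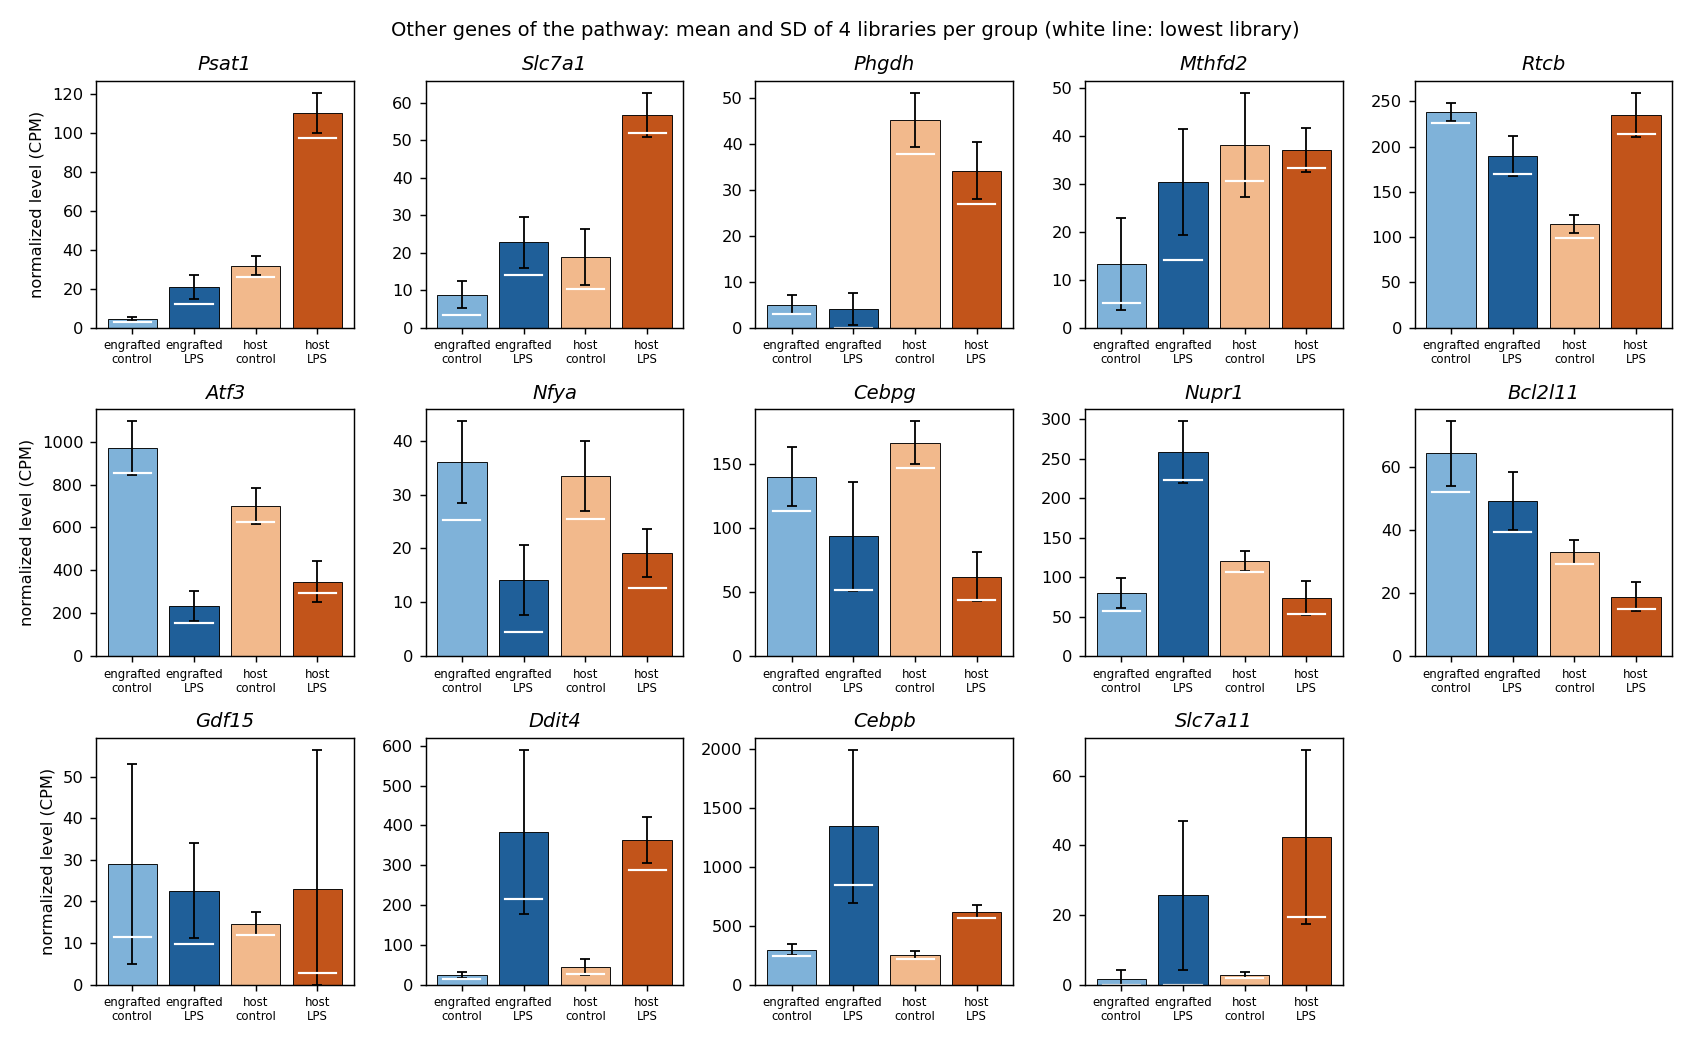
Level in CPM (vertical axis, from 0, with a scale of its own in each panel) of 14 genes of the response outside the 32 members, by group; bars are the mean of 4 libraries, error bars the SD (cut at 0), and the white line the lowest library. Nupr1 is highest in challenged engrafted cells (258 CPM) and Psat1 in challenged host microglia (110.04 CPM). Phgdh is at 5.04 and 4.16 CPM in the engrafted groups, near the limit that a count of 0 allows.

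Plasma cells have an exceptionally large ER, and their markers were therefore read alongside. Among markers of plasma cells and B cells, Cd79a and Pax5 were at 0 in every library and Jchain and Mzb1 were at most 2.80 CPM. The sum of the list was 83.6 to 153 CPM in unchallenged engrafted cells and 96.2 to 116 CPM in unchallenged host microglia, and 39.2 to 79.3 and 29.9 to 42.3 CPM after LPS. Most of it came from Cd79b and Prdm1. Tnfrsf17 (BCMA) was at 20.5 to 32.1 CPM in unchallenged host and 3.02 to 10.8 CPM in unchallenged engrafted cells, and Sdc1 at 3.90 to 13.4 CPM in challenged engrafted cells and at 0 in challenged host microglia. Neutrophil markers summed to 26.8 to 478 CPM in engrafted cells and to at most 8.35 CPM in host microglia, astrocyte markers to 16.8 to 74.2 CPM in engrafted cells and to 156 to 326 CPM in host microglia. Slc1a3 made up most of the astrocyte sum in host microglia, at a mean of 206 CPM without and 177 CPM with LPS, against 9.72 and 11.6 CPM in engrafted cells. The part of these RNAs in the difference between the populations was not tested.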

How the data were processed

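The 32 members and all gene lists were chosen with earlier results of these data known. The deposited table holds raw counts per gene. The authors mapped MARS-seq derived reads (3′ ends) to mm9 with HISAT (version 0.1.5 in the submitters' processing notes), kept unique alignments, and counted reads on exons, sense strand, 1 model per RefSeq gene, with HOMER. In R 4.3.3 these counts were filtered (filterByExpr, minimum count 10, total 15), scaled by TMM and tested with edgeR 4.0.16 (quasi-likelihood, prior count 0.125, Benjamini-Hochberg over all genes, adjusted p below 0.05). The study's rule adds 2-fold. Standard errors were derived from each fold change with its F value. The test was checked on simulated data. Members past the test and 2-fold in any comparison, the sensors, Xbp1, Atf4, Ddit3 and Hspa5 are given by library. Calr and Edem1 were added after their values were seen. From other lists, the 2 largest changes per comparison and direction beyond 2-fold with a mean of 20 CPM or more were named. Both libraries of a mouse come from 1 animal, as the series design says. After removing group means, they correlated at -0.0387 to 0.194. The mouse was a block among the alternatives, which also included DESeq2 1.42.0 and limma 3.58.1.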

Additional observations from a re-analysis of the deposited data

Results flagged for a closer look

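In 9 of 100 sets of 4 libraries (25 members in 4 groups), 1 library lay far from the other 3 by Dixon's criterion, which chance alone gives in about 1 set in 20. Of these, 4 were the engrafted LPS library of mouse 4. It was highest for Manf (459.8 CPM, the others 216 to 252), Pdia3 (280.3, others 146 to 164) and Hsp90b1 (322, others 218 to 229), and lowest for Atf6 (56.1, others 140.3 to 142). This library was also the shallowest and held the most red blood cell RNA, and the part of either in these values was not tested. The remaining sets were Xbp1 in the engrafted LPS library of mouse 1 (562 CPM, others 446 to 457), Dnajc3 in the engrafted LPS library of mouse 3 (124, others 70.8 to 77.2), Edem1 in the host LPS library of mouse 1 (187, others 217 to 223), Hsp90b1 in the engrafted control library of mouse 5 (292, others 254 to 259.6) and Calr in the host LPS library of mouse 3 (555, others 730.3 to 748). The response to LPS differed between the populations for Calr (interaction 1.00 on the log2 scale) and for Atf6 (interaction -1.30).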

How the results depend on the processing

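The counts of members depended on the setting as follows. For engrafted against host cells without LPS, the 1 higher member became 0 with library totals, DESeq2, all 16 libraries in 1 fit, limma-trend, without mice 4 and 8 (chosen after seeing the data) and beyond 2-fold; the 11 lower became 14 with library totals, 15 with limma-trend, 13 with no filter, 12 with at least 10 reads in every library, 6 with all 16 libraries, 7 without mice 4 and 8 and 0 beyond 2-fold, and ranged from 7 to 12 (higher: 0 to 1) when 1 library was left out. For LPS in engrafted cells, the 2 that fell became 4 with library totals, DESeq2, all 16 libraries and without mice 4 and 8, 5 with at least 10 reads in every library and 0 beyond 2-fold (range 2 to 4), and the 6 that rose became 2 beyond 2-fold (range 4 to 7). For LPS in host microglia, the 3 that rose became 5 with limma-trend and 1 beyond 2-fold (range 2 to 4), and the 6 that fell became 1 beyond 2-fold (range 4 to 6). After LPS, the 3 lower members became 0 beyond 2-fold (range 1 to 3, higher 1 to 1). For the interaction, the 1 larger response became 2 with DESeq2 and 0 beyond 2-fold (range 1 to 2, smaller 1 to 1). The cause was not tested. With the mouse as a replicate block the counts were 1 higher and 12 lower without LPS, 1 and 4 after LPS and 1 and 1 for the interaction, and Sel1l (without LPS) and Herpud1 (after LPS) passed with the block and not without it, while it changed no other call of a member; LPS and control mice differ, so it could not be fitted within a population. Values that changed sign were all small and uncalled: Ddit3 without LPS 0.028 without mice 4 and 8; Eif2ak3 after LPS 0.041 in engrafted cells with limma-trend and -0.14 in host cells without mice 4 and 8; and for the interaction Atf4 0.010 with RLE size factors, 0.0091 with DESeq2, 0.0026 with no filter and 0.049 with limma-trend, Hspa5 -0.015 with library totals, Ddit3 0.020 with limma-trend and Eif2ak3 0.013 without mice 4 and 8. Leaving out 1 library gave ranges that cross 0 for the interaction of Atf4 (-0.14 to 0.042), Ddit3 (-0.18 to 0.094) and Hspa5 (-0.050 to 0.16), for Ddit3 (-0.19 to 0.075) and Eif2ak3 (-0.31 to 0.16) without LPS, for Ddit3 (-0.22 to 0.020) and Ppp1r15a (-0.18 to 0.084) between populations after LPS, and for Eif2ak3 with LPS in engrafted (-0.37 to 0.11) and host cells (-0.052 to 0.29). With library totals the median log2 fold change of all genes moved to -0.16 after LPS and -0.10 for the interaction. Depth left 7 members untested.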
